A study of Mus musculus with 14 samples.

Results

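Cell cycle and proliferation genes were followed in B16-F10 mouse melanoma tumours, as 42 genes chosen by name for their roles in DNA replication, mitosis and the transcription of both. A gene was represented by the probe set that carried its symbol alone, or by the one with the highest mean where several did. On the larger of 2 array designs 40 of the 42 genes, out of 22180, had such a probe set, and all 40 lay above the lowest 25% of genes by mean that was left out as dim. Ccnb1 and Ccne2 had none there. On the smaller design 41 of 42, out of 19938, had one, and only Ccnb1 had none.

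Res 499 and Res 177 are sublines of B16-F10, a pigment-producing tumour line from the C57BL/6 strain, labelled resistant to radiation with antibody against the T cell brake CTLA4, and the control subline is labelled sensitive to it. One protocol is given for all 14 tumours: cells in Matrigel were placed under the skin of both flanks of C57BL/6 mice, on day 0 on the right and day 2 on the left. The right tumour then received 20 Gy on day 8, with the antibody injected on days 5, 8 and 11. Per the study's design text, the resistant sublines were cell lines grown out of non-irradiated tumours that had failed to respond or had come back, and tumours of these lines and of sensitive cells were the ones measured. The larger design held 7 Res 499, 1 Res 177 (replicate 2) and 4 control tumours (replicates 2 to 5), and the smaller design held 1 Res 177 and 1 control tumour (replicate 1 of each). Each resistant group is 1 subline, so its tumours are repeats of a subline and not of resistance. Neither the flank of the measured tumours, nor whether every one of them was treated, nor the number of mice is given, so the spread between tumours may be partly technical. All levels are log2 expression values and all changes are differences of them.

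These genes follow the division cycle. In G1, cyclin D and cyclin E kinases inactivate the retinoblastoma protein and release E2F factors, which switch on genes for origin licensing, nucleotide synthesis and DNA polymerisation. Later, MYBL2 and FOXM1, acting with the MuvB complex, switch on the cyclins, kinases, motors and checkpoint proteins of mitosis. The p53 target p21, encoded by Cdkn1a, works against both waves. In a tumour the RNA of these genes comes from dividing melanoma cells and from any dividing host cell, and in whole tumours a smaller share of dividing cells and less RNA per dividing cell cannot be told apart.

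Replication and mitosis genes differed in the letters of their promoters, which played no part in choosing the genes. RefSeq windows (GRCm38.p6) running from 250 bases before to 50 bases after a start were held for 34 of the 42 genes. The CHR element of mitotic genes was searched as TTTGAA and in its variant form TTTAAA, the NF-Y box as CCAAT, and E2F sites as TTCCCGC, in a second form as TTGGCGC and in a further form as TTCGCGC, each on both strands. TTTAAA is its own reverse complement, and forms of the E2F site can overlap each other. One or both CHR forms were found in 17 of 20 mitosis genes (85%) and in 4 of 14 genes of replication and the G1/S step (28.6%), against 28.2% of 17492 protein-coding genes. CCAAT was found in 17 of 20 mitosis genes (85%) and in 8 of 14 replication and G1/S genes (57.1%), against 42.3% of protein-coding genes. The E2F forms ran the other way, in 3 of 20 mitosis genes (15.0%) and in 7 of 14 replication and G1/S genes (50%), against 11.8%. A match is a string of letters and not a shown binding site.

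Promoters of 5 genes are shown because together they carry the 3 kinds of match and belong to genes described below. They are Cdk1 (chr10:69352863-69353162, minus strand), Plk1 (chr7:122159185-122159484, plus strand), Cenpa (chr5:30666636-30666935, plus strand), Mcm5 (chr8:75109259-75109558, plus strand) and Cdt1 (chr8:122567765-122568064, plus strand). Each is written along its gene's strand, and capitals mark the motifs on either strand.
Cdk1: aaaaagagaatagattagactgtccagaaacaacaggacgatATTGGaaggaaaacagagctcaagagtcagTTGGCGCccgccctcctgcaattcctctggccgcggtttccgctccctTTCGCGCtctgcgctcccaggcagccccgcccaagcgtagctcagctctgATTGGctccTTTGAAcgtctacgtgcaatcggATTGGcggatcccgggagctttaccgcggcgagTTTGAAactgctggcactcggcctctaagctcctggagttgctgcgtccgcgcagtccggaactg
Plk1: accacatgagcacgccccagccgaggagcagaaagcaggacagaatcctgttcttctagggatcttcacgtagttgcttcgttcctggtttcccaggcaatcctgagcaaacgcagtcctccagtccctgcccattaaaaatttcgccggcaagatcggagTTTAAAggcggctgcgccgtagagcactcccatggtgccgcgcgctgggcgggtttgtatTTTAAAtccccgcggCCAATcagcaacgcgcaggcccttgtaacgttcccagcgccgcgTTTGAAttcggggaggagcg
Cenpa: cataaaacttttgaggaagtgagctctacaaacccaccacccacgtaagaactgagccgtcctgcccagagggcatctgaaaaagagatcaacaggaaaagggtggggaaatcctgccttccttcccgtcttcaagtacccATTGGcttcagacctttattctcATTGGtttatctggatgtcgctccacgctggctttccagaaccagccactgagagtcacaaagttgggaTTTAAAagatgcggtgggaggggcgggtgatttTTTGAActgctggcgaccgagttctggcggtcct
Mcm5: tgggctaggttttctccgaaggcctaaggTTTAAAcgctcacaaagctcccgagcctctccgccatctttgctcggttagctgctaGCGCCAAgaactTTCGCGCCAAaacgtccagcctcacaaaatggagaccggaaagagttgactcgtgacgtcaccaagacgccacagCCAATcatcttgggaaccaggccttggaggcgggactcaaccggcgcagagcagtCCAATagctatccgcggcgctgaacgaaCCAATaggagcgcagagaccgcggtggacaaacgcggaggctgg
Cdt1: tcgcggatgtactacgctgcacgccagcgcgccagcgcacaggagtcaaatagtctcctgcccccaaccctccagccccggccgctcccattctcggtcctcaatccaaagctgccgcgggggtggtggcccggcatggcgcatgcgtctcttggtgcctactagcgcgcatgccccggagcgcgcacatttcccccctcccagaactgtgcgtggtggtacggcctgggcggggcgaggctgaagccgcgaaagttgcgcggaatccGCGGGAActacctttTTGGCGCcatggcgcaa
In Cdk1, the kinase of mitotic entry, CHR matches start at positions -15 and -71 from the transcription start, with NF-Y boxes on the other strand at -48, -80 and -208 and E2F forms at -130 and -178. In Mcm5, a helicase subunit, E2F forms start at -164 and, overlapping each other, at -152 and -149. In Cdt1, a licensing factor, both matches are E2F forms, at 19 and 34.

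In Res 499 tumours the cell cycle genes lay close to their level in control tumours. Fitted with limma over all genes, 0 of 40 members passed an adjusted p of 0.05 (smallest adjusted p = 0.213, for Tyms), where 59 of 16635 genes tested passed (0.355%), and 2 of 40 had an unadjusted p under 0.05, where 13% of all genes did. Changes ran from -0.27 to 0.33 with a median of -0.02, against a median of 0.01 over all genes, and 17 of 40 were positive, against 51.7% of all genes. In 0 of 40 members did the ranges of the 7 Res 499 and 4 control tumours stay apart, against 2.39% of all genes. The 95% confidence interval of the change lay within 0.5 log2 units of 0, which is 1.41-fold, for 35 of 40 members (87.5%), close to the 83.1% of all genes. The 5 whose interval reached further were Tyms, Mcm5, E2f1, Cdt1 and Cenpe. Standard errors of members ran from 0.06 to 0.19, with a median of 0.11, against 0.10 over all genes.

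**Figure D1:**
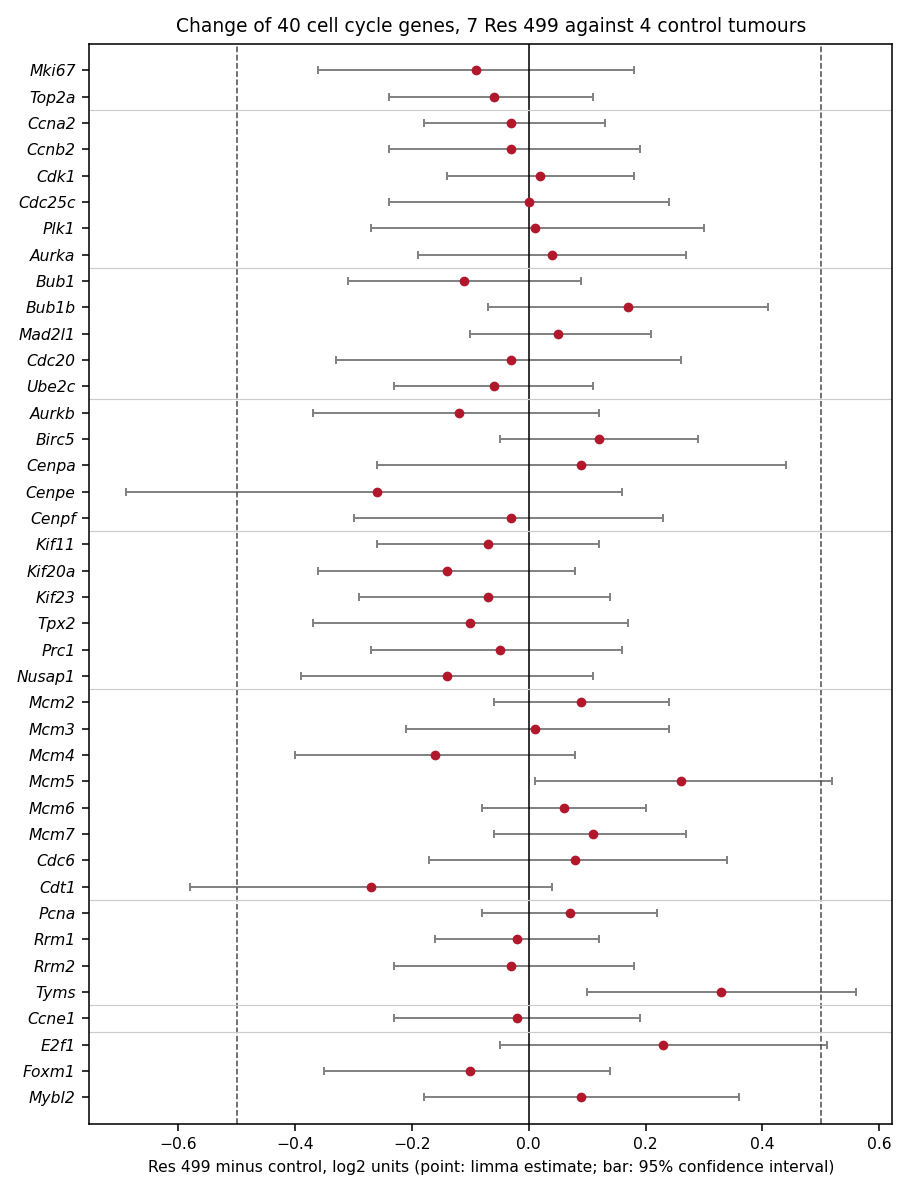
Change of each of 40 cell cycle genes in 7 Res 499 against 4 control tumours, in log2 units on the horizontal axis, with genes by role down the page. Points are limma estimates, bars are 95% confidence intervals and dashed lines mark 0.5 log2 units either way. Estimates run from -0.27 (Cdt1) to 0.33 (Tyms), and 35 of 40 intervals stay between the dashed lines.

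The 2 most used proliferation markers gave close values. Mki67, which encodes the chromosome surface protein Ki-67, ran from 11.08 to 11.77 with a median of 11.59 in Res 499 tumours, against 11.67, 11.76, 11.60 and 11.49 in control tumours. Its means were 11.54 ± 0.25 (SD, n = 7) and 11.63 ± 0.12 (SD, n = 4), a difference of -0.09 with an interval from -0.36 to 0.18 (limma adjusted p = 0.824). Top2a, the topoisomerase that untangles sister chromosomes, ran from 11.32 to 11.80 with a median of 11.62 in Res 499, against 11.72, 11.71, 11.63 and 11.63 in control, and differed by -0.06 (interval -0.24 to 0.11). Res 499 replicate 5 was the lowest of all tumours for both genes and Res 499 replicate 2 the highest, so the 2 extremes lie in the same subline.

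Genes that bring cells into mitosis differed by at most 0.04 in size. Cdk1 ran from 11.81 to 12.16 with a median of 12.01 in Res 499 tumours, against 11.99, 12.01, 11.98 and 12.05 in control tumours. The Res 499 values fell on both sides of the controls, 3 above all of them and 2 below, and the difference was 0.02 (SE 0.07, interval -0.14 to 0.18). Plk1, a mitotic kinase, ran from 10.91 to 11.55 with a median of 11.16, against 11.03, 11.02, 11.28 and 11.37, and differed by 0.01 (SE 0.13). Ccna2 and Ccnb2, the cyclins that bind CDK1, both differed by -0.03, the phosphatase gene Cdc25c by 0.00 and the centrosome kinase gene Aurka by 0.04. All 6 intervals of this group lay within 0.5 log2 units.

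Genes of the spindle checkpoint, which holds anaphase until chromosomes are attached, had 2 positive and 3 negative changes. Bub1b, encoding the checkpoint protein BUBR1, differed by 0.17 (interval -0.07 to 0.41) and the checkpoint kinase gene Bub1 by -0.11 (interval -0.31 to 0.09). Cdc20 and Ube2c, which drive the anaphase-promoting complex that ends mitosis, differed by -0.03 and -0.06, and Mad2l1 by 0.05. Bub1b stood high in Res 499 replicate 1 alone, at 10.48, while the other 6 Res 499 tumours lay between 9.82 and 10.01 and the controls between 9.73 and 9.93.

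Among centromere and chromosomal passenger genes, Cenpe, a kinetochore motor, had the widest interval of all members. It ran from 8.69 to 9.59 with a median of 9.16 in Res 499 tumours, against 9.71, 9.95, 9.13 and 9.14 in control tumours. The controls varied too, with SDs of 0.32 (n = 7) in Res 499 and 0.41 (n = 4) in control, and the difference was -0.26 (interval -0.69 to 0.16, limma adjusted p = 0.621). It was -0.11 without control replicate 3, whose 9.95 was the highest value of the gene, and -0.44 with leukocyte content as a covariate. Cenpa, the centromeric histone, differed by 0.09, Cenpf by -0.03, Birc5 (survivin) by 0.12 and its partner kinase gene Aurkb by -0.12. The 6 spindle motor and midzone genes all had negative changes, from -0.14 for Nusap1 and the motor gene Kif20a to -0.05 for the microtubule bundler Prc1, and their intervals all held 0.

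Replication genes held both the largest positive and the largest negative differences. Tyms, the thymidylate synthase that supplies thymidine nucleotides, ran from 10.05 to 10.47 with a median of 10.21 in Res 499 tumours, against 9.74, 10.08, 9.65 and 10.13 in control tumours. In 5 of 7 Res 499 tumours it lay above every control, and the other 2 overlapped them. The means were 10.22 ± 0.14 (SD, n = 7) in Res 499 and 9.90 ± 0.24 (SD, n = 4) in control, a difference of 0.33 or 1.25-fold (SE 0.11, interval 0.10 to 0.56, unadjusted p = 0.00951, limma adjusted p = 0.213). The other members of nucleotide supply and the sliding clamp did not share this size, with Rrm1 and Rrm2, the subunits of ribonucleotide reductase, at -0.02 and -0.03 and Pcna at 0.07. Pcna ran from 12.18 to 12.38 in Res 499 with a median of 12.26, against 12.08, 12.33, 12.11 and 12.29 in control.

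The 6 subunits of the MCM helicase, which unwinds DNA at origins, had differences of both signs. Mcm5 ran from 11.24 to 11.77 with a median of 11.65 in Res 499 tumours, against 10.99, 11.42, 11.49 and 11.38 in control tumours, and 5 of 7 Res 499 tumours lay above every control. Its difference was 0.26 (SE 0.12, unadjusted p = 0.0444, limma adjusted p = 0.369), and it was 0.15 without control replicate 2, whose 10.99 was the lowest value of the gene. Over 22 alternative settings the difference ran from 0.15 to 0.41. Mcm4 had the opposite sign, at -0.16 (interval -0.40 to 0.08), with 10.43 to 11.07 in Res 499 and 10.83, 11.04, 11.11 and 10.91 in control. It was at -0.10 without Res 499 replicate 5 and ran from -0.21 to -0.10 over the alternative settings. Mcm2, Mcm3, Mcm6 and Mcm7 differed by 0.09, 0.01, 0.06 and 0.11. The Mcm2 values were 11.76 to 12.05 with a median of 11.88 in Res 499, against 11.68, 11.88, 11.78 and 11.81 in control.

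Loading of the helicase needs CDC6 and CDT1. Cdt1 ran from 9.65 to 10.43 with a median of 9.88 in Res 499 tumours, against 10.09, 10.42, 10.38 and 10.08 in control tumours. It lay below every control in 5 of 7 Res 499 tumours and above every control in 1, replicate 1, and the difference was -0.27 or 0.83-fold (SE 0.14, interval -0.58 to 0.04, limma adjusted p = 0.461). Cdc6 differed by 0.08 (interval -0.17 to 0.34).

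Of the regulators of these waves, E2f1 ran from 9.60 to 10.20 with a median of 9.89 in Res 499 tumours, against 9.42, 9.66, 9.58 and 9.98 in control tumours, and 3 of 7 lay above every control. Its difference was 0.23 (SE 0.13, interval -0.05 to 0.51, limma adjusted p = 0.492). It was 0.15 without control replicate 2 and ran from 0.15 to 0.34 over 22 alternative settings. Foxm1 and Mybl2 differed by -0.10 and 0.09. Ccne1, cyclin E1, ran from 9.04 to 9.50 with a median of 9.18 in Res 499, against 9.20, 9.35, 9.36 and 9.04 in control, a difference of -0.02 (interval -0.23 to 0.19).

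Members varied between single tumours, and sets of them were high or low in the same tumour. Res 499 replicate 1 held the highest value of all 12 tumours in 23 of 40 members (57.5%), where it was highest in 8.3% of all genes tested. Those 23 span both waves, from E2f1, Mybl2, Cdc6 and Mcm2 to Plk1, Aurka, Aurkb and Cdc20. In this tumour 32 of 40 members lay above the control mean (54.2% of all genes did) and the members averaged 0.19 above it. More members, 34 of 40, lay above the control mean in control replicate 3 (51.2% of all genes did), by a smaller average of 0.09.

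**Figure D2:**
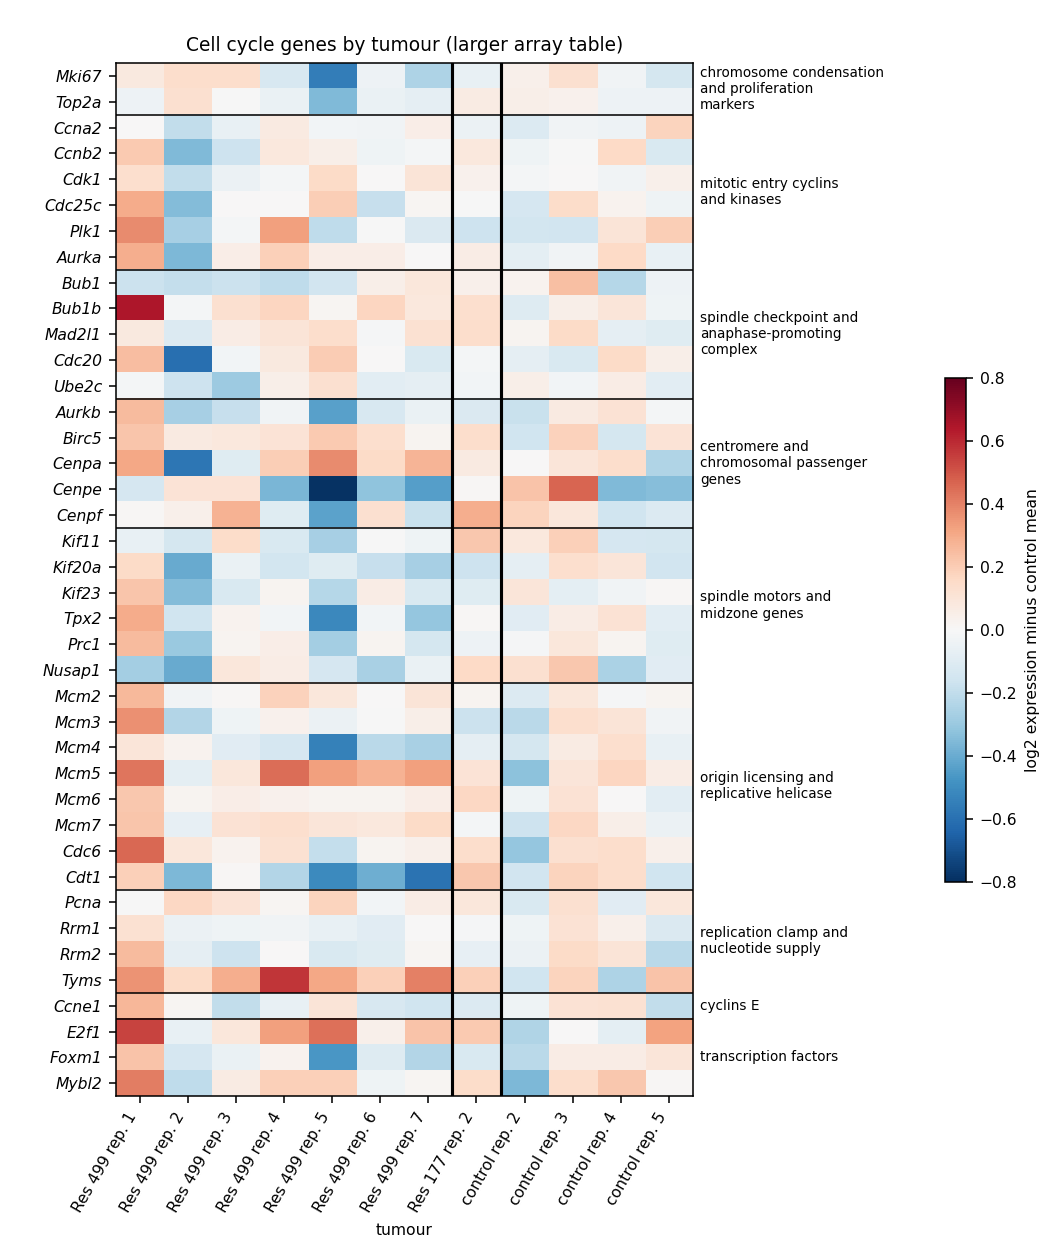
Colour map of 40 cell cycle genes (rows, by role) in 12 tumours of the larger design (columns, Res 499 left, then Res 177, then control), as log2 expression minus the mean of the 4 controls. Red is higher and blue lower than the control mean. Res 499 replicate 1 is red in most rows, with 32 of 40 members above the control mean, and Res 499 replicate 2 is mostly blue, with 11 of 40 above it.

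Low values fell into roles that differed only in part between tumours. Res 499 replicate 2 was lowest in 14 of 40 members (35%, against 15.5% of all genes), and 13 of these act in mitosis, among them Cdk1, Ccna2, Ccnb2, Plk1 and Cdc20. Cdc20 was at 9.81 in this tumour and Cenpa at 9.66, while the other 6 Res 499 tumours ran from 10.29 to 10.66 for Cdc20 and from 10.14 to 10.62 for Cenpa. Mitotic entry genes averaged -0.28 there and spindle motors -0.29, while nucleotide supply averaged 0.05 and Mki67 and Top2a together 0.13.

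Res 499 replicate 5 was lowest in 9 of 40 members (22.5%, against 16% of all genes), namely Mki67, Top2a, Aurkb, Cenpe, Cenpf, Kif11, Tpx2, Mcm4 and Foxm1. In the same tumour Cdk1, Ube2c, Cenpa and Pcna were at their highest, which is 4 of 40 members (10%), against 16.9% of all genes. Its spindle motors averaged -0.25, low as in Res 499 replicate 2, while its mitotic entry genes averaged 0.04. Control replicate 2 was lowest in 9 of 40 members (22.5%, against 8.05%), namely Mcm2, Mcm5, Mcm7, Cdc6, Pcna, E2f1, Mybl2, Bub1b and Birc5. Licensing genes averaged -0.18 and the transcription factors -0.27 in that control, while its mitosis groups averaged from -0.09 to 0.04.

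Leukocyte markers moved widely in the same tumours. Mean differences from the control mean over 5 leukocyte genes (Ptprc, Cd53, Coro1a, Laptm5 and Tyrobp) were 1.44, 1.78, 1.91, 0.33, 1.56, 0.31 and -0.33 in Res 499 replicates 1 to 7, against 0.32, -0.11, -0.21 and 0.00 in control replicates 2 to 5. Members averaged 0.19, -0.14, 0.00, 0.05, -0.08, -0.02 and -0.03 in the same Res 499 tumours, against -0.07, 0.09, 0.01 and -0.03 in the controls. The 4 Res 499 tumours above 1 for leukocyte genes held both the highest and the lowest member averages. With leukocyte content as a covariate the median member change was 0.01, and 0 of 40 members passed. Leukocyte genes were themselves higher on average in Res 499, with a median change of 1.16, so this fit cannot fully part them from subline. By limma 0 of these 5 genes passed (smallest adjusted p = 0.228). The part of leukocytes in the member values was not tested. Control replicate 2 also carried the highest mean of 10 skeletal muscle markers, 0.30, against -0.27 to 0.19 in Res 499 and -0.16 to 0.01 in the other controls. Among the controls it was also highest for fibroblast and matrix (0.55), macrophage and monocyte (0.38), endothelial (0.22) and melanocyte markers (0.06). It was not highest for T cell (-0.03), B cell (-0.06) or keratinocyte markers (0.04). The part of muscle or of any of these cell types in its low replication genes was not tested.

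**Figure D3:**
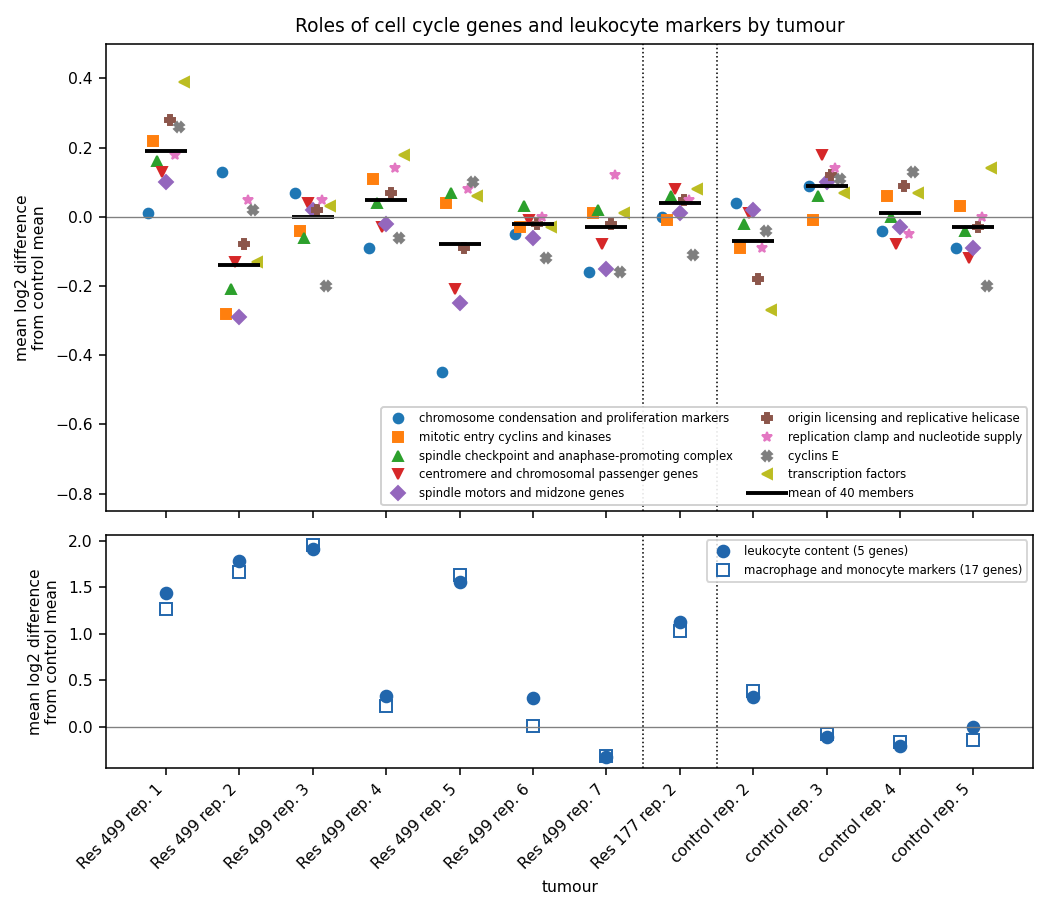
Upper panel, mean log2 difference from the control mean for each role (symbols) and for all 40 members (black bars) in 12 tumours, Res 499 left, then Res 177, then control. Lower panel, the same for 5 leukocyte genes and 17 macrophage and monocyte markers. Member averages run from -0.14 to 0.19 in Res 499 and from -0.07 to 0.09 in control, while leukocyte genes run from -0.33 to 1.91 and from -0.21 to 0.32.

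Upstream of these genes, 1 regulator passed the test. Cdk2, the kinase of cyclins E and A, rose in Res 499 tumours, where it ran from 12.15 to 12.51 with a median of 12.34, against 11.73, 11.94, 11.89 and 11.97 in control tumours. It lay above every control in 7 of 7 tumours, with a change of 0.45 or 1.37-fold (SE 0.08, limma adjusted p = 0.0435). The call was lost in 8 of the 11 fits that left out a Res 499 or control tumour, with changes from 0.40 to 0.49 and adjusted p up to 0.163 (without control replicate 4). In RefSeq, Cdk2 overlaps the pigment gene Pmel, and whether the probe set also reads Pmel RNA was not tested. The Pmel probe set differed by 0.16 (SE 0.06, adjusted p = 0.286). Cdk2 was the only one called of 18 G1 cyclins, kinases and pocket proteins, whose median change was -0.04. Of the 18, 5 had an unadjusted p under 0.05 by limma, where 13% of all genes did. Ccnd1, cyclin D1, was at 10.88 to 11.32 in Res 499 and at 11.40, 11.19, 11.49 and 11.31 in control, a difference of -0.24 (adjusted p = 0.261). The other D cyclins went opposite ways, Ccnd2 by -0.24 and Ccnd3 by 0.27 (limma adjusted p = 0.241 and 0.247). Rb1 differed by -0.36 (SE 0.13, adjusted p = 0.274) and Myc by 0.04 (SE 0.15).

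CDK inhibitors differed in both directions, and 0 of 8 passed by limma, with 2 of 8 at an unadjusted p under 0.05. Cdkn1a (p21) ran from 10.97 to 11.81 with a median of 11.44 in Res 499 tumours, against 12.11, 12.26, 12.36 and 11.88 in control tumours. All 7 tumours lay below every control, the difference was -0.71 or 0.613-fold (SE 0.14) and the adjusted p was 0.0573. It passed in 7 of 22 alternative settings, with adjusted p from 0.0101 to 0.227. Cdkn2c (p18), an inhibitor of CDK4 and CDK6, ran from 9.58 to 9.90 in Res 499, against 9.53, 9.22, 9.26 and 9.40 in control. It too was apart in 7 of 7 tumours, with a difference of 0.40 (SE 0.09, adjusted p = 0.0767). Cdkn2a, the gene of p16 and p19ARF, differed by 0.02 (SE 0.06), at 6.66 to 6.86 in Res 499 and 6.62 to 6.79 in control. Array medians were 5.7 to 5.8, and whether Cdkn2a stood above background was not tested.

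**Figure D4:**
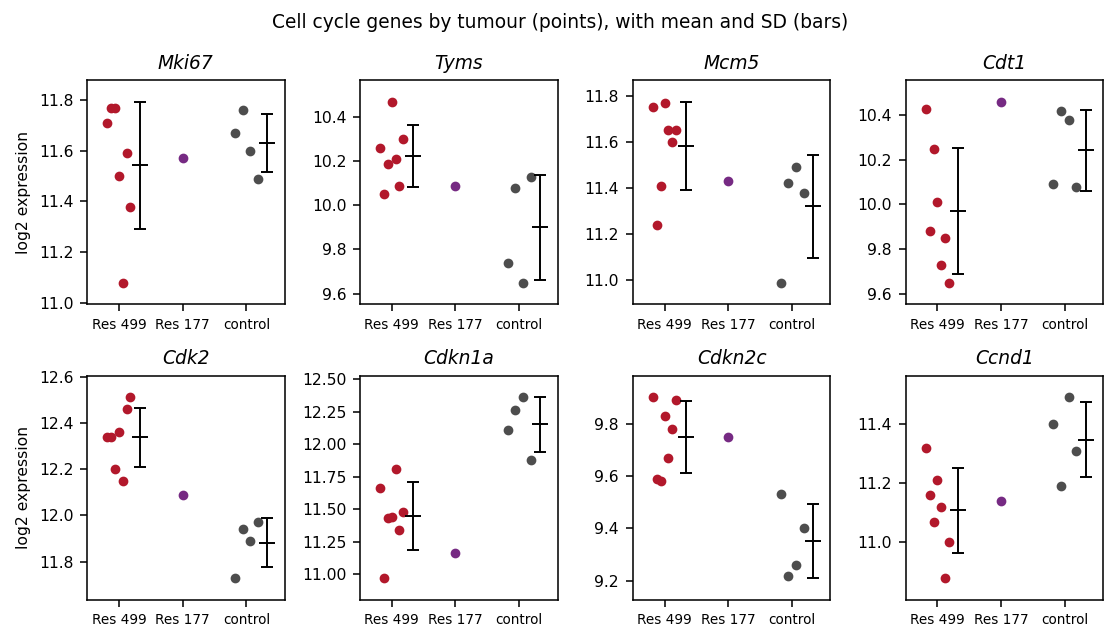
Log2 expression of 8 cell cycle genes in each tumour of the larger design (points; Res 499 left, Res 177 middle, control right), with the mean and SD of Res 499 (n = 7) and control (n = 4) as bars. The vertical axes are cut to each gene's range. Groups overlap for Mki67, Tyms, Mcm5, Cdt1 and Ccnd1, while all 7 Res 499 tumours lie above the controls for Cdk2 and Cdkn2c and below them for Cdkn1a.

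Other genes of the pathway, from lists that hold no member, had medians near 0 in Res 499. Of 15 E2F, DREAM and MuvB factors 0 passed by limma (3 at an unadjusted p under 0.05), with a median of -0.02 and the ends at Tfdp2 (-0.33, adjusted p = 0.129) and E2f5 (0.25, adjusted p = 0.426). Of 36 further replication genes 0 passed (3 unadjusted), with a median of 0.03, from Pole, the leading strand polymerase, at -0.32 to the clamp loader gene Rfc2 at 0.25. Of 49 further mitosis genes 0 passed (3 unadjusted), with a median of -0.06, from the motor gene Kif14 at -0.34 to the kinetochore gene Nuf2 at 0.21. Nuf2 was above every control in 7 of 7 tumours, yet its adjusted p was 0.203. Of 14 replication stress genes 0 passed (3 unadjusted), with a median of -0.09, from the checkpoint kinase gene Atr at -0.38 to the repair gene Brca1 at 0.41 (SE 0.24).

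The Res 177 tumour of the larger design gave differences of like size. With 1 tumour its error is taken from the other groups, and subline and tumour cannot be told apart. By limma 0 of 40 members passed against control (0.21% of all genes did) and 0 had an unadjusted p under 0.05 (4.08% of all genes). The median difference was 0.03, with 23 of 40 positive (53.3% of all genes), and 10 of 40 values lay outside the control range (39.9% of all genes). Intervals were wider with 1 tumour, and 19 of 40 lay within 0.5 log2 units (50.8% of all genes did). The largest positive differences were those of Cenpf (0.29, at 9.12 against 9.01, 8.92, 8.67 and 8.72 in control), Cdt1 (0.22, at 10.46) and Kif11, the motor that pushes spindle poles apart (0.21, at 11.00). The largest negative ones were those of Plk1 (-0.17, at 11.01), Mcm3 (-0.17, at 9.88) and Kif20a (-0.16, at 10.07). Cdkn1a was at 11.16, below all 4 controls, a difference of -0.99 (SE 0.25, adjusted p = 0.377). Keratinocyte markers averaged 2.04 above the control mean in this tumour and leukocyte genes 1.12, and their part in the member values was not tested.

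Set directly against the Res 177 tumour, Res 499 tumours differed in 0 of 40 members by limma (0.234% of all genes passed), with 0 at an unadjusted p under 0.05 (2.93% of all genes). The median difference, Res 499 minus Res 177, was -0.02, with 16 of 40 positive (47.5% of all genes). The widest was that of Cdt1, at -0.49 (SE 0.24, interval -1.02 to 0.04), and on the positive side that of Mcm3, at 0.19 (SE 0.18). Cdt1 was thus at 9.97 ± 0.28 (SD, n = 7) in Res 499 and at 10.46 in Res 177, with control at 10.24 ± 0.18 (SD, n = 4). These 3 comparisons share tumours and are not independent.

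The smaller design held a different Res 177 tumour and a different control tumour. There 37 of 41 members were higher in Res 177, where 58.5% of 14953 genes were, and the median difference was 0.18, against 0.04 over all genes. No member reached 0.5 log2 units, where 7.52% of all genes did, and with 1 tumour a group there is no test. Cell type markers were counted only among the 14953 genes above the dim level of this design. Leukocyte genes were higher in the same Res 177 tumour in 5 of 5 cases, with a median of 1.43. Macrophage and monocyte markers were higher in 13 of 13 with a median of 1.34, and keratinocyte markers in 7 of 8 with 1.14. Left out as dim were Cd163, Cd14 and Ccr2 of the macrophage and monocyte list, with smaller differences of 0, 0.17 and 0.35. The keratinocyte marker Krt1, at 0.20, was left out too. The part of these cell types in the member values was not tested.

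Licensing genes led these differences, with all 8 between 0.29 and 0.48. Cdt1 was at 11.23 in Res 177 and 10.75 in control, Mcm5 at 11.50 and 11.03, Cdc6 at 9.01 and 8.55, and Mcm3 at 10.90 and 10.53. All 6 mitotic entry genes lay between 0.16 and 0.28, with Cdk1 at 12.67 in Res 177 and 12.43 in control. Birc5 was at 10.36 and 9.91, Tyms at 11.77 and 11.46, and E2f1 at 10.37 and 10.12. The 4 members below 0 were Mki67 (11.76 in Res 177 and 11.80 in control), Cenpe (-0.10), Cenpf (-0.08) and Kif23, a motor of cell division, at -0.01. The spindle motors as a group had a median of 0.06. Ccne2, which only this design measured, was at 10.32 in Res 177 and 10.16 in control.

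**Figure D5:**
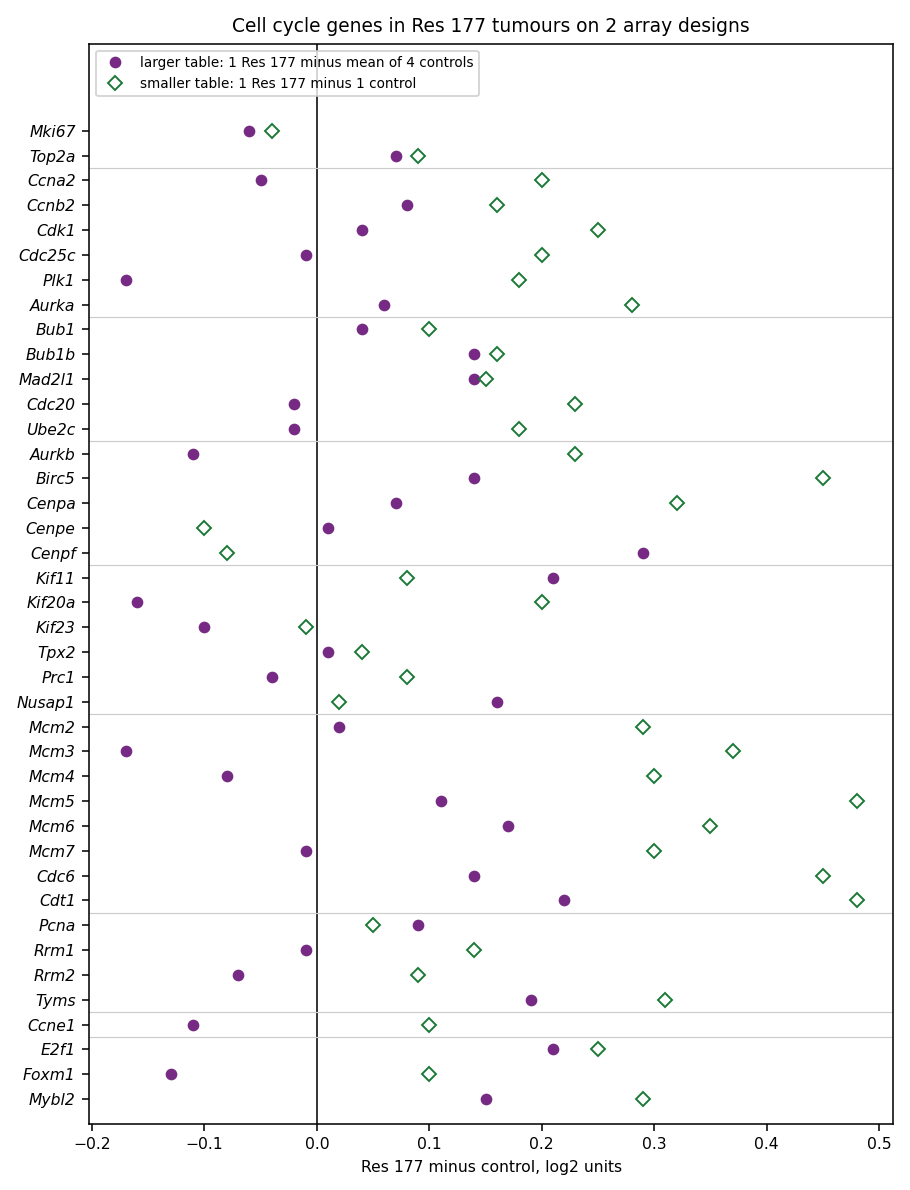
Difference of Res 177 from control, in log2 units, for 40 cell cycle genes by role, in the larger design (filled circles, 1 Res 177 tumour minus the mean of 4 controls) and the smaller design (open diamonds, 1 Res 177 minus 1 control tumour). Diamonds lie mostly right of 0 and circles on both sides, with medians over the members of 0.18 and 0.03.

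The designs were normalized apart and their tumours are different ones, so their differences stand side by side. Members had the same sign on both designs in 23 of 40 cases, where 62.3% of 13507 genes did, and were positive on both in 21 of 40, where 37.6% did. Mcm3 was at 0.37 on the smaller and -0.17 on the larger design and Plk1 at 0.18 and -0.17, while Tyms (0.31 and 0.19), Mcm6 (0.35 and 0.17) and Cdt1 (0.48 and 0.22) were positive on both. On the smaller design the further replication genes were positive in 33 of 37 cases with a median of 0.29, and the further mitosis genes in 45 of 51 with a median of 0.26. Unlike the members, 7 of these 37 and 7 of these 51 reached 0.5 log2 units either way, where 7.52% of all genes did. So did 3 of 15 E2F, DREAM and MuvB factors and 4 of 14 replication stress genes. Among 18 G1 cyclins, kinases and pocket proteins and 7 CDK inhibitors, 0 did. The 7 CDK inhibitors with a value there were positive, from 0.03 to 0.47, while Cdkn1a had no value on that design, and Cdk2 was at 12.86 in Res 177 and 12.54 in control.

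As a check of the tumours themselves, the pigment cell markers Pmel, Tyr, Dct and Mlana had values above 10 in every tumour of the larger design. Trpm1, Kit, Ednrb and Gpr143 of the same list lay below 10 in every one. Trpm1 was lowest, at 6.33 to 7.53 in Res 499 and 5.63 to 6.74 in control. The 16 melanocyte genes averaged from -0.05 to 0.42 relative to the control mean in Res 499 and from -0.06 to 0.06 in control. Of 17 macrophage and monocyte markers, 17 had a higher mean in Res 499 than in control, though 0 passed by limma (smallest adjusted p = 0.253). Tumour averages of these markers ran from -0.31 to 1.95 in Res 499 and from -0.16 to 0.38 in control. T cell markers averaged from -0.07 to 0.70 in Res 499 and from -0.07 to 0.17 in control. Several members overlap another protein-coding gene in RefSeq (Nusap1, E2f1, Aurka, Ccna2, Ccne2, Cdc20, Mcm7, Foxm1, Prc1 and Kif20a). So do the pathway genes Rb1, Atr, E2f5 and Ccnd1, besides Cdk2. A part of the overlapping gene in their values was not tested.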

How the data were processed

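Total RNA of 14 tumours was hybridised to 2 designs of Affymetrix array, 12 tumours on the larger and 2 on the smaller. The authors deposited log2 values, 1 for each probe set. Per the submitters' processing notes they used oligo and RMA. Tool versions and the genome build were not given in the sources used, and the log2 scale follows from how the values are spread. RMA equalises arrays, so a shift shared by all genes would not show. The 2 designs were normalized separately and never mixed. Precision is limited by how few tumours there are. Correlations between the 12 arrays ran from 0.977 to 0.993.

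Groups came from the subline label, and replicate numbers only name tumours. Probe sets with exactly 1 symbol in the platform annotation (23521 of 41345) were kept, with 1 per gene by highest mean, the lowest 25% of genes were left out, and 16635 were fitted with limma 3.58.1 in R 4.3.3 (lmFit, eBayes, 3 groups) with Benjamini-Hochberg adjustment at 0.05. The fit was tested on simulated data with independent noise for each gene and tumour. Such data do not cover tumours that share a mouse or genes that move together. Genes picked for fuller values were those past the threshold or with ranges apart, the 3 largest differences each way in Res 499 and in Res 177, and Mki67, Top2a, Cdk1, Ccnb1, Mcm2, Pcna, Ccne1 and E2f1. Their Res 499 values are given as a range, mostly with a median. Some, such as Kif11 and Kif20a, carry only differences and a Res 177 value, and Ccnb1 had no value. From the pathway lists the picks were called genes, the ends of each list, Cdkn1a, Cdkn2a, Ccnd1 and Myc, several of them given by difference alone. Ccnd2 and Ccnd3 were added beside Ccnd1 after their values were seen. The other members carry shorter values. The members and lists were chosen with earlier results of these data known. Alternatives covered the filter, probe set, normalization, prior, array weights, groups fitted, leukocyte content and each tumour left out.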

Additional observations from a re-analysis of the deposited data

Results flagged for a closer look

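Checked were 128 groups of tumours, for members, picked pathway genes (without Ccnd2 and Ccnd3) and role averages, in Res 499 and in control. Of these groups 6 held a tumour far from the rest of its group, which is 4.69%, and chance flags about 1 in 20. Res 499 replicate 1 stood high for Bub1b at 10.48 (others 9.82 to 10.01), for Mcm6 at 11.10 (others 10.91 to 10.94) and for Rrm1 at 12 (others 11.79 to 11.88). Res 499 replicate 5 stood low for Top2a at 11.32 (others 11.60 to 11.80) and for Brca1 at 8.52 (others 9.51 to 10.08). Control replicate 2 stood low for Foxm1 at 9.70 (others 9.97 to 10.01). Without Res 499 replicate 1 the median member change was -0.05, without replicate 5 it was -0.01, and without control replicate 2 it was -0.04.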

How the results depend on the processing

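The count of members past the threshold stayed at 0 in all 3 comparisons of the larger design under every alternative run. The member nearest to it was Tyms in Res 499 against control with array weights, at a limma adjusted p of 0.0559. The median member change ran from -0.05 to 0.01 in Res 499 against control and from 0.01 to 0.06 in Res 177 against control, that of the smaller design from 0.15 to 0.18, and members with an interval within 0.5 log2 units numbered 32 to 36. The count of all genes called in Res 499, 59, was 39 with arrays centred on their medians, 356 with array weights and 25 with leukocyte content as a covariate, and it ran from 6 to 196 with 1 tumour left out. It was 6 without control replicate 4 and 11 and 22 without control replicates 2 and 3. It was 196 without Res 499 replicate 2, and 24, 14, 18, 23 and 37 without Res 499 replicates 1, 3, 4, 6 and 7. Differences near 0 changed sign: with quantile normalization repeated, Plk1 and Cdkn2a were at -0.01, and with 1 tumour left out Cdk1 ran from 0.00 to 0.06, Ccne1 from -0.09 to 0.02, Mcm3 from -0.06 to 0.06, Plk1 from -0.05 to 0.08, Cenpf from -0.09 to 0.03, Cdkn2a from -0.02 to 0.04 and Myc from -0.06 to 0.20. The cause of these shifts was not tested. A fit of Res 499 and control alone gave the same values, since a single Res 177 tumour adds no spread. No paired analysis was possible because the replicate numbers were given here in accession order, and the labels hold none that could pair tumours. Levels near background were not assessed, since the deposited values carry no detection calls.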

Other observations

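Pole, Kif14 and Brca1, chosen after their values were seen, were low in Res 499 replicate 5. Pole was at 8.58 there and between 9.25 and 9.88 in the other 6 Res 499 tumours, Kif14 at 8.24 against 8.88 to 9.45, and Brca1 at 8.52 against 9.51 to 10.08. Control tumours lay at 9.42 to 9.90 for Pole, 9.13 to 9.52 for Kif14 and 8.78 to 9.54 for Brca1. In that tumour the replication stress genes averaged -0.26, the further mitosis genes -0.18 and the further replication genes 0.06.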
